A study of Rattus norvegicus with 24 samples.

Results

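miR-103 and miR-107 were followed in peripheral blood mononuclear cells (PBMC) of rats with collagen-induced arthritis (CIA) across 4 treatment and control arms. They are the 2 family members on the array, chosen as the rows named exactly rno-miR-103 and rno-miR-107 among 677 miRNAs; the rule for membership is the name alone. Both were detected on all 24 arrays, and 132 of the 677 miRNAs were. The rows for the opposite arms of the same hairpins, rno-miR-103-1*, rno-miR-103-2* and rno-miR-107*, were detected on 0 of 24 arrays and have no level here.

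All animals were female Wistar rats, sampled as 12 groups of 2 arrays. Healthy rats (NOCIA) were sampled before therapy, at 1 hour and at 34 days. Arthritic rats, immunised with bovine type II collagen, were sampled before therapy (CIA) and, in each of 4 arms, 1 hour and 34 days after therapy. The arms were mechanical stimulation (MS), a needle inserted and twirled at points of the lower back and below the knee, methotrexate (MTX), saline placebo given by peritoneal injection (PLA), and a control arm (ANE) anaesthetised with isoflurane in place of ether at blood sampling and given no other therapy. Ages were not given in the labels. Animals were sacrificed at each blood drawing, so the times of an arm are different animals and no rat was followed over time.

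miRNAs of this family are conserved among vertebrates and are best known from metabolism. They lie in introns of genes of pantothenate kinases, the enzymes that start coenzyme A synthesis, and in liver and fat they are known to repress caveolin-1, a protein that stabilises the insulin receptor. A miRNA guides Argonaute proteins to messenger RNAs that pair with its seed, the bases near its 5′ end, and lowers the output of those messenger RNAs.

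The mature sequences show how little separates the members. Below, capitals mark the seed (bases 2 to 8), and the sequences are those of RefSeq on build GRCr8.
rno-miR-103: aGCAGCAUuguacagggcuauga
rno-miR-107: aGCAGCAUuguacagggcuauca
Both are 23 bases long and share the seed GCAGCAU. They are identical at 22 of 23 positions, and the difference is G22C, counted from 1 at the 5′ end, with the base of miR-103 first. A seed match alone therefore cannot tell their targets apart.

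These RNAs come from 3 loci. The hairpins are printed because miR-103 comes from a pair of loci that no probe for the mature RNA can tell apart; capitals mark the mature arm.
Mir103a1: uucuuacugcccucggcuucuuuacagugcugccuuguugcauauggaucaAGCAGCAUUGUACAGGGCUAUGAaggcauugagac
Mir103a2: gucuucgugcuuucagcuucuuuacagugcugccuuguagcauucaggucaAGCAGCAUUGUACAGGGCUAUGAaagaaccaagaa
Mir107: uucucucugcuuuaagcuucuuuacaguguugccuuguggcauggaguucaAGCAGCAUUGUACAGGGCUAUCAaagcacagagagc
In GRCr8, Mir103a1 lies at chr10:20748474-20748559 on the plus strand, Mir103a2 at chr3:138963227-138963312 on the plus strand and Mir107 at chr1:241750418-241750504 on the minus strand. RefSeq places them within Pank3, Pank2 and Pank1, in that order. The level printed below for miR-103 can hold RNA of both loci, and the share of each was not measured.

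A wider group of miRNAs holds the same AGCAGC run one base further from the 5′ end, which shifts the seed. These 6 relatives are shown because 5 of them were detected on all arrays and can be set beside the members.
rno-miR-15b: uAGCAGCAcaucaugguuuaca
rno-miR-16: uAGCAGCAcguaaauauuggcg
rno-miR-195: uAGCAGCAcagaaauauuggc
rno-miR-497: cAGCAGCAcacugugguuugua
rno-miR-322: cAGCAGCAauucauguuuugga
rno-miR-503: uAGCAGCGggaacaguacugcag
None of the 6 shares the seed of miR-103 and miR-107. AGCAGC starts at position 1 in both members and at position 2 in each relative.

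The arrays themselves differed in brightness, and slide and group were tied. The summed intensity of detected miRNAs ran from 137544 to 519917 per array, with 145 to 207 miRNAs detected. The lowest sums were those of NOCIA before therapy and the highest was that of an MS array at 34 days. Each group lay on 1 of 3 slides of 8 arrays, each slide scanned together. On slide 1 were the 34 day arrays of PLA, MTX and MS and the 1 hour arrays of ANE. On slide 2 were both groups sampled before therapy and the 34 day arrays of ANE and NOCIA, and on slide 3 the 1 hour arrays of PLA, NOCIA, MTX and MS. A difference across slides cannot be told apart from the slide. The white cell miRNAs miR-142-3p and miR-142-5p were detected on all arrays, as a PBMC label requires, and so were miR-451 and miR-144, which mark red cells.

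As the scanner gave them, the total intensities of miR-103 ran from 772 on MTX at 1 hour, replicate 2, to 4713 on MS at 34 days, replicate 1, a 6.11-fold range. Those of miR-107 ran from 717 to 3817 on the same arrays, a 5.32-fold range. Neither range is corrected for the brightness of the array. After each array was scaled to a common 75th percentile over the 132 miRNAs detected everywhere, the ranges shrank to 1.99-fold and 1.86-fold. All levels and differences below are on the log2 scale of the scaled intensity, unless said otherwise.

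For miR-103 the healthy arrays read 10.29 and 10.30 before therapy, 10.27 and 10.48 at 1 hour, and 10.56 and 10.54 at 34 days. CIA before therapy read 10.31 and 10.29. Untreated arthritic and healthy rats thus lay within the same narrow band before therapy.

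Among treated arthritic rats, miR-103 was 10.47 and 10.09 in MS at 1 hour and 11.07 and 10.69 at 34 days. In MTX it was 10.50 and 10.07 at 1 hour and 10.58 and 10.10 at 34 days. The MTX replicates lay 0.42 and 0.48 apart at these times. ANE read 10.76 and 10.76 at 1 hour and 10.52 and 10.40 at 34 days. PLA read 10.23 and 10.62 at 1 hour and 10.34 and 10.30 at 34 days. Both MS arrays at 34 days and both ANE arrays at 1 hour lay above every array of the other 10 groups.

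miR-107 followed the same order at the ends. Healthy arrays read 10.09 and 10.09 before therapy, 10.16 and 10.25 at 1 hour, and 10.34 and 10.36 at 34 days. CIA before therapy read 10.12 and 10.08. MS read 10.27 and 9.87 at 1 hour and 10.76 and 10.36 at 34 days. Again the MS arrays at 34 days were the highest pair by mean, and MS at 1 hour held the lowest array of all 24. MTX read 10.27 and 9.97 at 1 hour and 10.28 and 10.03 at 34 days. ANE read 10.47 and 10.42 at 1 hour and 10.28 and 10.15 at 34 days. PLA read 10.13 and 10.34 at 1 hour and 10.18 and 10.13 at 34 days. ANE at 1 hour and MS at 34 days lay above the remaining groups here too, the lower MS array only just over the NOCIA arrays at 34 days (10.362 against 10.357).

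**Figure D1:**
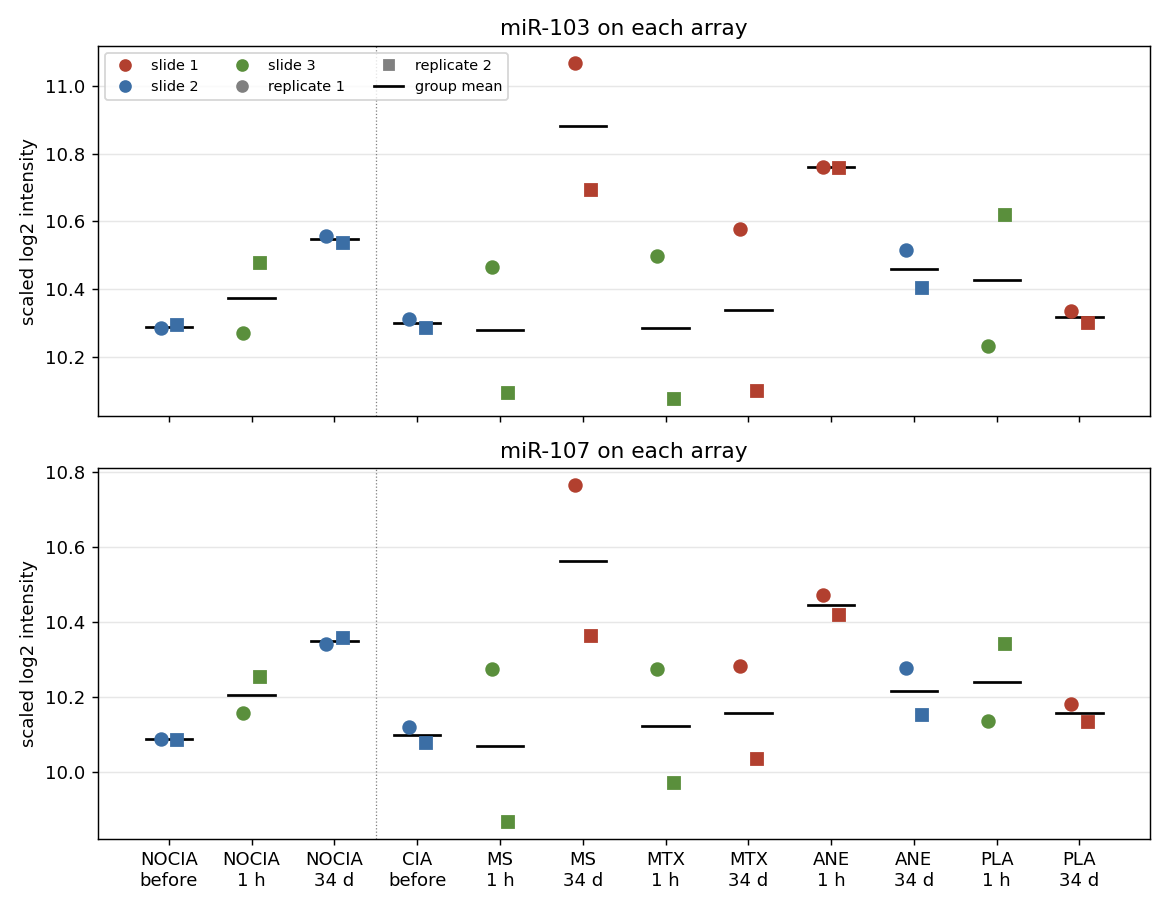
Scaled log2 intensity of miR-103 (top) and miR-107 (bottom) on each of 24 arrays, by group, with colour for the slide, circles for replicate 1, squares for replicate 2 and a bar for the group mean; the axes do not start at 0. MS at 34 days has the highest mean of each miRNA (10.88 and 10.56) and a replicate 1 well above its replicate 2.

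By group mean, miR-103 ran from 10.88 in MS at 34 days through 10.76 in ANE at 1 hour and 10.55 in NOCIA at 34 days down to 10.28 in MS at 1 hour. For miR-107 the same 3 groups led, at 10.56, 10.45 and 10.35, and MS at 1 hour was again last, at 10.07. The widest gap between neighbours for miR-103, from ANE at 1 hour to NOCIA at 34 days, was 0.21 against a standard error of a difference of 0.20, and the widest for miR-107, from MS at 34 days to ANE at 1 hour, was 0.12 against 0.17. Every other gap was smaller than its standard error. Arrays of neighbours did not overlap between ANE at 1 hour and NOCIA at 34 days, for both members, and between NOCIA and ANE at 34 days for miR-103; all other neighbours overlapped.

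Spread was modest beside that of other miRNAs. Over 24 arrays the SD was 0.24 for miR-103 and 0.19 for miR-107, the 37th and 21st smallest of the 132 miRNAs detected on all arrays, whose median SD was 0.31. Within groups the pooled SD was 0.19 and 0.15, against a median of 0.28. Replicates lay 0.37 and 0.40 apart in MS at 34 days, 0.48 and 0.25 apart in MTX at 34 days, and 0.010 and 0.0033 apart in NOCIA before therapy, for miR-103 and miR-107 in turn.

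Each member is read by 2 probes of 10 spots each; all 10 spots of each probe stood well above background on every array, and none was saturated. The median coefficient of variation over the 10 spots was 4.81% to 6.97% across the 4 probes.

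The design asks first whether arthritis, and then whether each therapy, moved these miRNAs. limma was fitted to the 210 miRNAs detected on at least 3 arrays, with 12 group means, and a call is an adjusted p under 0.05 after Benjamini-Hochberg adjustment over all 210. Of 21 comparisons per member, 42 in all, limma called 0, and 7 had an unadjusted p under 0.05. The 7 were all upward and all involved MS at 34 days or ANE at 1 hour. Such p-values were common among all 210 miRNAs in the same comparisons. For MS at 34 days, 102 of 210 reached one against CIA before therapy, 84 against PLA and 37 against MTX. For ANE at 1 hour against CIA before therapy, 38 did. In these comparisons limma called 40, 0, 0 and 1 of 210, in that order. The 7 therefore do not set the members apart from other miRNAs. The moderated F test for any difference among the 12 groups gave an adjusted p of 0.392 for miR-103 and 0.426 for miR-107, beside 5 of 210 miRNAs (2.38%) called. Nothing says that the replicates of a group were separate litters or cages, so the p-values measure the spread between these samples.

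**Figure D2:**
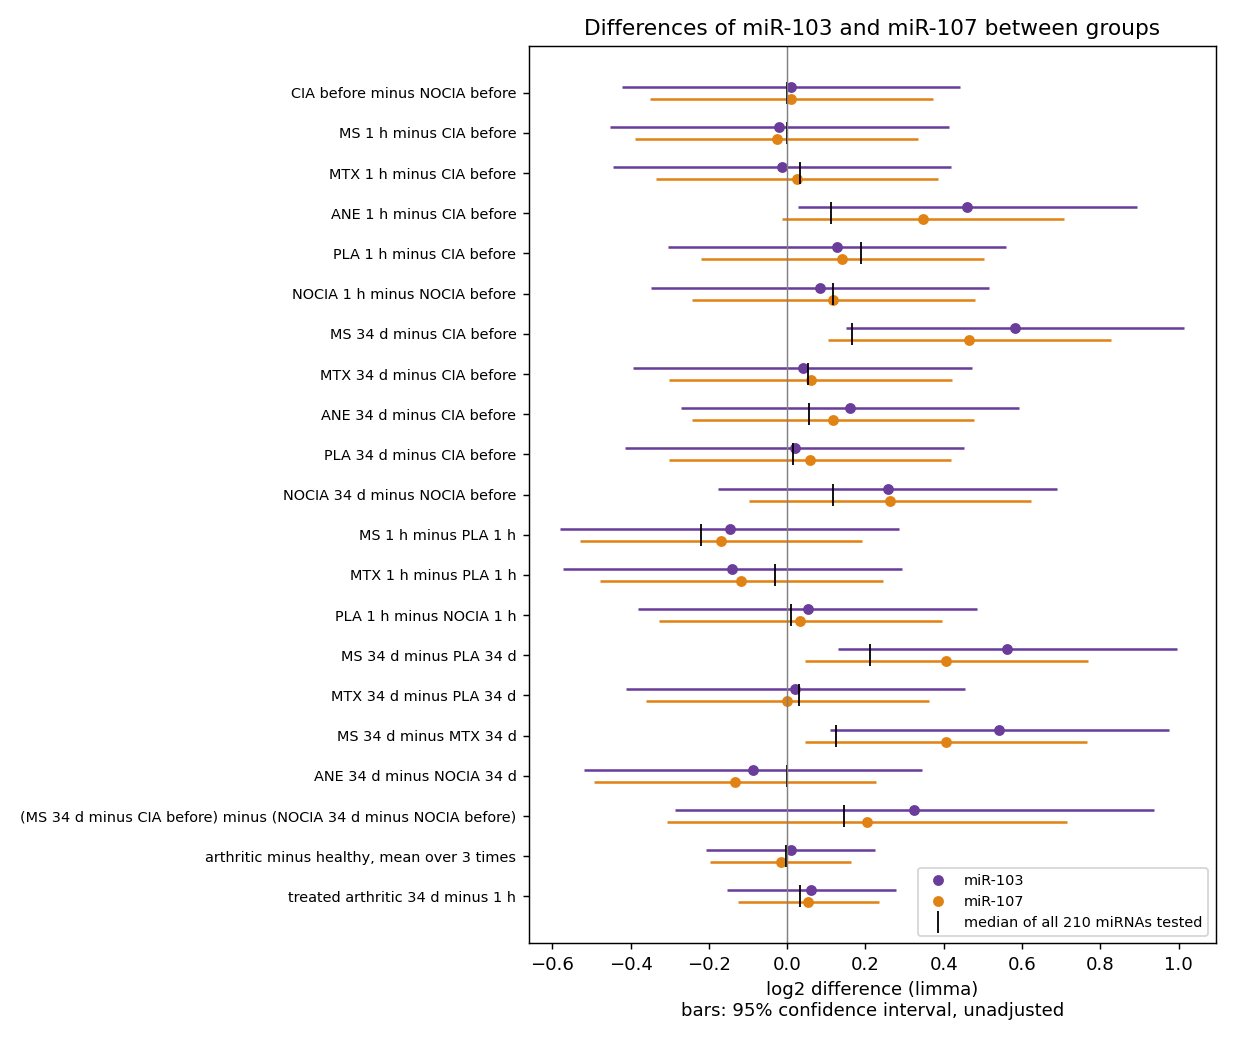
Log2 difference (x axis, limma, with unadjusted 95% confidence intervals) of miR-103 and miR-107 in each of 21 comparisons (y axis); black ticks are the median of all 210 miRNAs tested. The intervals of both members exclude 0 for MS at 34 days against CIA before therapy, PLA and MTX, and no comparison passes the threshold after adjustment over 210 miRNAs.

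Before therapy, CIA and NOCIA did not differ detectably. The difference was 0.0094 for miR-103 (95% interval -0.42 to 0.44) and 0.011 for miR-107 (-0.35 to 0.37), with a limma adjusted p of 0.980 for both, and 2 of 210 miRNAs (0.952%) were called. Both groups lay on slide 2. Averaged over the 3 times, arthritic minus healthy was 0.0086 for miR-103 (-0.21 to 0.22) and -0.017 for miR-107 (-0.20 to 0.16), while 1 of 210 (0.476%) was called.

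At 1 hour the clearest readings were those of ANE. miR-103 was 0.46 higher than in CIA before therapy (SE 0.20, a 1.38-fold difference) with unadjusted p = 0.0386 and a limma adjusted p of 0.263, and miR-107 was 0.35 higher (SE 0.17) with an adjusted p of 0.263. All 4 values of ANE at 1 hour lay above all CIA values of the same miRNA, and 1 of 210 miRNAs (0.476%) was called in that comparison. There 38 of 210 (18.1%) had an unadjusted p under 0.05, and the median of all was 0.11. ANE at 1 hour was on slide 1 and CIA on slide 2. The other arms stayed nearer to CIA, with differences of -0.020 and -0.027 in MS, -0.013 and 0.024 in MTX, and 0.13 and 0.14 in PLA, for miR-103 and miR-107. In those comparisons 0 (0%), 3 (1.43%) and 2 (0.952%) of 210 miRNAs were called, and for MS 27 miRNAs had an unadjusted p under 0.05 in limma. Healthy rats differed by 0.084 and 0.12 between 1 hour and before therapy, with 2.38% of miRNAs called. Against PLA at the same hour and on the same slide, MS read -0.15 and -0.17 (0.952% called) and MTX -0.14 and -0.12 (0% called, 5 with an unadjusted p under 0.05).

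At 34 days MS stood highest. miR-103 was 0.58 higher than in CIA before therapy (SE 0.20, 95% interval 0.15 to 1.01), with a limma adjusted p of 0.0526. miR-107 was 0.47 higher (SE 0.17, interval 0.11 to 0.83, 1.38-fold), with an adjusted p of 0.0540. Both missed the threshold in the comparison with the most calls, in which 40 of 210 miRNAs (19.0%) passed, 33 higher and 7 lower. An unadjusted p under 0.05 in limma was reached there by 102 of 210 (48.6%). The median of all 210 was 0.16, and 65.2% and 61.4% of miRNAs had a lower signed difference than miR-103 and miR-107. Over the processing alternatives that kept all MS and CIA arrays, limma's adjusted p spanned 0.0101 to 0.389 (miR-103) and 0.0102 to 0.557 (miR-107).

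Replicate 1 of MS at 34 days carried much of this. Without it the differences fell to 0.39 and 0.26, with limma adjusted p of 0.477 and 0.503. Without replicate 2 they rose to 0.77 and 0.67, and both passed, at 0.0210 and 0.0146. Without scaling between arrays the differences were 1.78 and 1.66, both called, beside a median of 1.32 over all miRNAs, so most of the unscaled difference was shared by the whole array. The summed intensity was 305171 and 519917 on the MS arrays and 163860 and 167322 on the CIA arrays, and its part in the scaled difference was not tested.

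**Figure D3:**
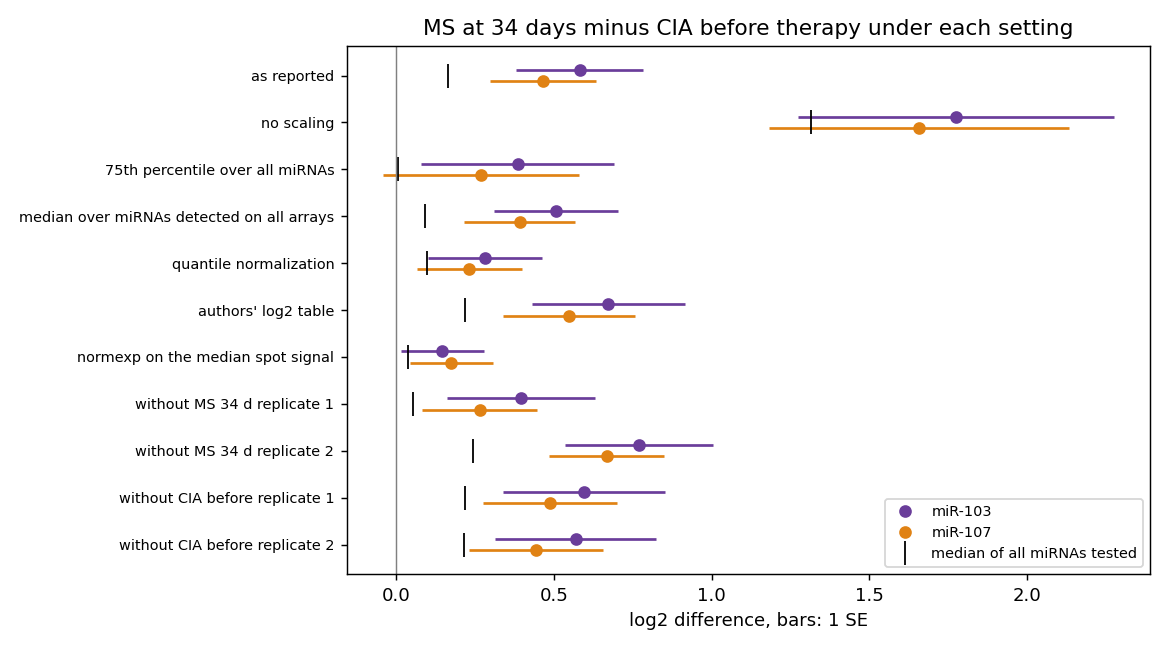
Log2 difference of MS at 34 days minus CIA before therapy (x axis, bars of 1 SE) for miR-103 and miR-107 under 11 settings (y axis), with a black tick for the median of all miRNAs tested. Every difference is above 0, from 0.15 for miR-103 with normexp background correction to 1.78 without scaling, and the tick moves with the scaling.

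The same MS arrays could be compared within slide 1. Against PLA at 34 days, MS was 0.56 higher for miR-103 (SE 0.20) and 0.41 higher for miR-107 (SE 0.17), with limma adjusted p of 0.0701 and 0.0873, and 0 of 210 miRNAs (0%) were called, 84 having an unadjusted p under 0.05. Without replicate 2 of MS these became 0.75 and 0.61 and passed, at 0.0245 and 0.0240, and without replicate 1 they became 0.38 and 0.21. Against MTX the differences were 0.54 and 0.41, with an adjusted p of 0.259 for both (0% called, 37 with an unadjusted p under 0.05). No array of PLA or MTX at 34 days reached an MS array of the same time. These comparisons share the MS arrays with the one above and are no separate support for it.

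In the remaining arms at 34 days the members lay close to CIA before therapy. The differences were 0.040 and 0.060 in MTX, 0.16 and 0.12 in ANE, and 0.019 and 0.059 in PLA, for miR-103 and miR-107. limma called 0 of 210 miRNAs (0%) in each, and 15, 6 and 4 had an unadjusted p under 0.05. Healthy rats themselves read 0.26 higher at 34 days than before therapy for each member (adjusted p = 0.790 by limma, 0.952% called), on 1 slide and with no overlap of arrays. Set against that difference, the MS difference was 0.32 for miR-103 (interval -0.29 to 0.94) and 0.20 for miR-107 (-0.31 to 0.71), with limma adjusted p of 0.549 and 0.614 and 0.476% called. Averaged over the 4 arms, 34 days minus 1 hour was 0.062 and 0.054 (1.90% called), and the arms went both ways. At 1 hour and 34 days in turn, the miR-103 means were 10.28 and 10.88 in MS and 10.29 and 10.34 in MTX. They were 10.76 and 10.46 in ANE and 10.43 and 10.32 in PLA. PLA minus NOCIA at 1 hour was 0.052 and 0.034, MTX minus PLA at 34 days 0.021 and 0.00079, and ANE minus NOCIA at 34 days -0.087 and -0.13, with 0 of 210 miRNAs (0%) called by limma in each and 4, 5 and 8 at an unadjusted p under 0.05.

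The sign of the small differences depended on the scaling. Of the 21 comparisons, 5 kept their sign for both members under every alternative scaling and background correction that was run: ANE at 1 hour, MS at 34 days and PLA at 34 days against CIA before therapy, and MS at 34 days against PLA and against MTX. Another 2, NOCIA at 34 days against before therapy and ANE against NOCIA at 34 days, came to 0 under one of them. Each of the remaining 14 turned sign for at least 1 member under at least 1 of them, and none of these was called with either sign.

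Markers of white cell types were read in the same groups, and limma called only miR-223 among them, for MS at 34 days. miR-223, which is abundant in myeloid cells, had a scaled intensity of 8678 and 12161 in MS at 34 days and of 10149 and 13020 in ANE at 1 hour, against 4918 and 6222 in CIA before therapy. Its difference was called for MS (0.89, adjusted p = 0.0383 by limma) and read 1.06 for ANE (adjusted p = 0.0922). Of all 210 miRNAs, limma called 40 (19.0%) for MS and 1 (0.476%) for ANE, both against CIA before therapy. The miRNAs listed here as lymphocyte markers were miR-150, miR-342-3p and miR-146a, and how specific each is was not tested. They summed to between 1628 and 7033 in MS at 34 days and between 5925 and 6510 in ANE at 1 hour. In CIA the sum was between 13403 and 14404, with 0 of 3 called in either comparison. miR-150 led the sum in CIA, with a log2 mean of 13.42 beside 11.13 for miR-342-3p and 9.39 for miR-146a. In NOCIA at 34 days miR-223 was 8041 to 8104 and the lymphocyte sum 7291 to 10127. The platelet marker miR-126 read 105 to 192 in MS at 34 days and 59.3 to 67.0 in CIA, and the red cell sum 4663 to 8725 and 4306 to 27062, with 0 of 1 and 0 of 2 called. The white cell markers miR-142-3p and miR-142-5p read 0.12 and -0.19 for MS, with 0 of 2 called. All markers of these lists were detected on both arrays of each of those groups. In whole PBMC, a change in the share of a cell type and a change of RNA per cell cannot be told apart, and the part of cell makeup in the readings of miR-103 and miR-107 was not tested.

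The members moved together more tightly than most pairs of miRNAs. Across 24 arrays the Pearson r of their scaled levels was 0.971 and Spearman's rho 0.951, and r was 0.954 without the 2 arrays farthest from the median of miR-103. Within slides 1, 2 and 3 r was 0.978, 0.980 and 0.951. These are descriptions over arrays that share scaling and brightness. A measure free of scaling is the difference of the log2 levels within an array. Its SD over 24 arrays was 0.073, the smallest that either member had with any of 131 partners, and only 7 of 8646 pairs of miRNAs had a smaller one (median 0.47).

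**Figure D4:**
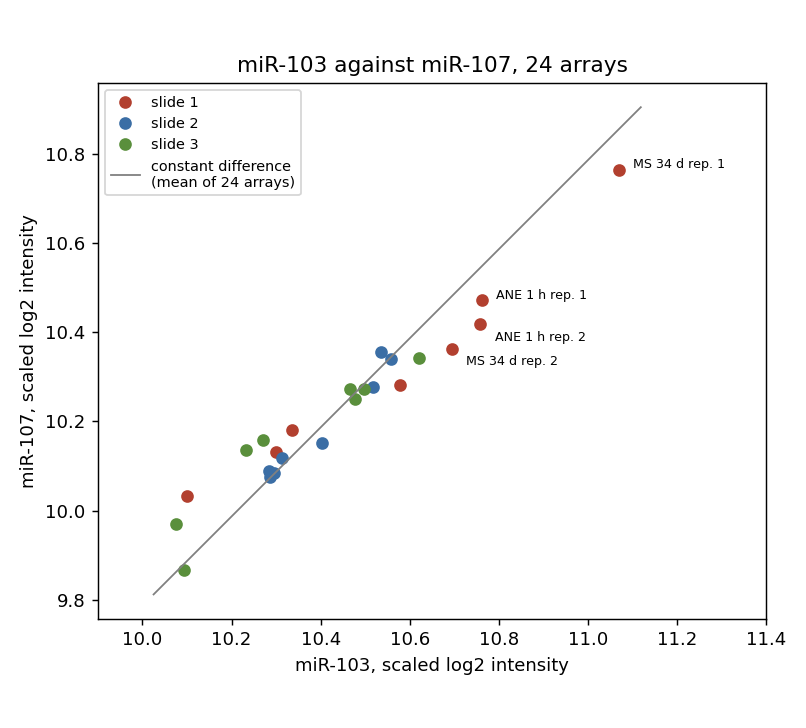
Scaled log2 intensity of miR-103 (x axis) against miR-107 (y axis) on 24 arrays, coloured by slide, with a line for the mean within-array difference. The points keep close to the line (r = 0.971), and those of MS at 34 days and ANE at 1 hour lie below it, where miR-103 exceeded its usual distance to miR-107.

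That difference varied nearly as much between replicates as over all arrays, with a pooled SD within groups of 0.070 beside the 0.073 over 24 arrays. miR-103 minus miR-107 averaged 0.21 and ran from 0.067 on MTX at 34 days, replicate 2, to 0.340 on ANE at 1 hour, replicate 2. It was 0.304 and 0.332 in MS at 34 days and 0.290 and 0.340 in ANE at 1 hour, the groups where both miRNAs stood highest, and 0.193 and 0.211 in CIA before therapy. Replicates lay far apart in other groups, at 0.297 and 0.067 in MTX at 34 days and 0.098 and 0.278 in PLA at 1 hour. Since probes differ in response, the size of the difference says nothing about which miRNA is more abundant, and only its change counts. In exact permutation tests it did not separate the labelled classes: arthritic arrays exceeded healthy ones by 0.030 (n = 18 and 6, two-sided p = 0.391, adjusted 0.782 over the 2 tests), and treated arthritic arrays at 34 days exceeded those at 1 hour by 0.0078 (n = 8 and 8, two-sided exact permutation p = 0.859). These tests shuffled single arrays without regard to group, arm, time or slide, and slide 1 held no healthy array. Their p-values therefore do not allow for arrays of a group or slide being alike. With a difference of 1 base between the mature RNAs, how far each probe binds the other member was not tested. Probes of one member differed by SDs of 0.081 (miR-103) and 0.056 (miR-107) within arrays, and probes of different members by 0.074 to 0.102, so probes of different members ran nearly as parallel as probes of the same one. All 4 probes placed MS at 34 days above CIA before therapy, by 0.46 to 0.64.

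The level also went with brightness after scaling. Over 24 arrays the scaled level correlated with the log2 summed intensity at r = 0.755 for miR-103 and r = 0.762 for miR-107 (rho 0.718 and 0.767), and at 0.702 and 0.664 without the 2 farthest arrays. Within slides r was 0.813, 0.915 and 0.531 for miR-103 and 0.824, 0.886 and 0.502 for miR-107. The sum holds the members' own signal, and these values are descriptions.

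Among the 131 other miRNAs detected on all arrays, the 5 whose 12 group means were most like those of miR-103 were miR-107 (r = 0.986), miR-324-5p (0.972), miR-872 (0.957), let-7d (0.947) and miR-26a (0.934). For miR-107 they were miR-103 (0.986), miR-324-5p (0.955), let-7d (0.953), miR-26a (0.946) and miR-872 (0.944). The median r over all 131 was 0.587 and 0.584, so a positive r was the common case. Most of these names depended on the processing. Without scaling 4 of 5 stayed for each member, but with quantile normalization 1 of 5 names stayed for miR-103 and 0 of 5 for miR-107, and 1 of 5 stayed for each member with the values of the authors' table.

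The relatives with the shifted AGCAGC fell into 2 patterns. miR-195, miR-497 and miR-322 had r of 0.90, 0.86 and 0.83 with miR-103 over the group means. miR-15b and miR-16 had -0.23 and -0.33. With miR-107 the values were 0.90, 0.85 and 0.85 against -0.18 and -0.28. These are descriptions over 12 group means under the main processing, and these r values were not computed under the alternatives. The 2 patterns also differed in brightness. In CIA before therapy miR-15b and miR-16 averaged 13.31 and 13.60, and miR-195, miR-497 and miR-322 averaged 6.72, 5.18 and 7.03. The part of brightness in the patterns was not tested. In GRCr8 the loci of miR-15b and miR-16 neighbour each other, as do those of miR-195 and miR-497 and those of miR-322 and miR-503. For MS at 34 days minus CIA before therapy, 2 of 6 relatives were called, both higher, where 40 of all 210 miRNAs (19.0%) were called and 33 were higher. miR-195 was higher by 0.72 (limma adjusted p = 0.0383) and miR-497 by 1.65 (adjusted p = 0.0406). miR-322 and miR-503 read 0.69 and 0.89, and miR-15b and miR-16 read -0.41 and -0.41, uncalled. The median of the 6 was 0.71 beside 0.16 over all miRNAs. In the other 20 comparisons limma called 0 of the 6.

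**Figure D5:**
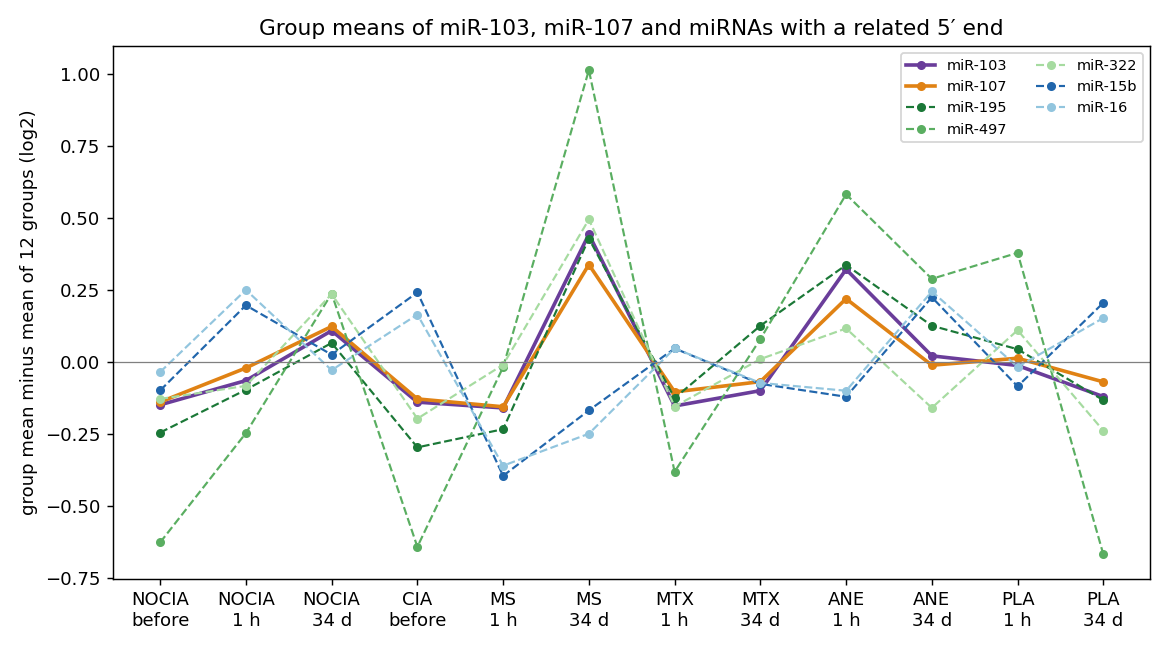
Group means minus the mean of the 12 groups (y axis, log2) of miR-103 and miR-107 (solid) and of 5 miRNAs with the AGCAGC run 1 base later (dashed), by group (x axis); no error bars are drawn. At MS 34 days and ANE 1 hour miR-103, miR-107, miR-195, miR-497 and miR-322 lie above 0 while miR-15b and miR-16 lie below it.

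A list of 13 other miRNAs known for roles in lipid and glucose metabolism held 11 that were tested. For MS at 34 days minus CIA before therapy, limma called 0 of the 11, beside 19.0% of all 210. Their differences ran from -1.23 (miR-378*) to 1.32 (miR-143), and their median was -0.16 beside 0.16 over all miRNAs. Across the other comparisons the single member called was miR-122, the dominant miRNA of hepatocytes, which also serves here as the liver marker. limma called it lower in CIA before therapy, NOCIA at 1 hour and NOCIA at 34 days than in NOCIA before therapy, and higher in ANE at 1 hour than in CIA before therapy. Its scaled intensity was 212 and 217 in NOCIA before therapy and 43.1 and 497 in ANE at 1 hour, and was not detected on any array of CIA before therapy, MS, MTX at 1 hour, NOCIA at 34 days or PLA at 34 days. miR-33, which lies in a gene of sterol regulation and acts on cholesterol export, read 0.90 higher in MS at 34 days than in CIA (limma adjusted p = 0.0606). It was dim and its MS arrays lay far apart, at 3.60 and 4.85 against 3.16 and 3.50 in CIA, with the floor at 2.53. Over the 12 group means miR-143 had r of 0.84 with miR-103, miR-33 0.49, and miR-29a and miR-378 had -0.49 and -0.45.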

How the data were processed

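Small RNA of rat PBMC was measured on 24 one-colour Agilent miRNA arrays, 2 for each of 12 groups. Groups and replicate numbers came from the labels, where NOCIA, CIA and MS are written NORA, RA and AP. For the healthy rats at 34 days one label line names 1 hour; the title and another line give 34 days, which was used. Per the labels, cells were isolated on a density gradient and total RNA carried a Cy3 label.

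The deposited intensity values were, per the file headers, read by Agilent Feature Extraction 10.7.3.1, background-subtracted, summed over the spots of a miRNA and not normalised between arrays. The authors also deposited a table of log2 values; the submitters' processing notes name Agilent Feature Extraction 10.7 and RMA, and the normalisation of that table is not given in the sources used here. It was used as an alternative only, after each of its 24 columns had been checked against the scanner values of its array. No column of per-sample values was left unmapped, and no column of the authors' own comparisons was used.

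Each total intensity was scaled to a common 75th percentile over the 132 miRNAs detected on all arrays (factors 0.452 to 1.42), floored at 5.76 (2.53 in log2) and log2-transformed. limma 3.58.1 in R 4.3.3 (lmFit, eBayes) was fitted to 210 miRNAs detected on at least 3 arrays with 12 group means and 12 residual degrees of freedom, with two-sided tests and Benjamini-Hochberg adjustment over the 210. The script was tested on simulated data. Within-array differences were compared by exact permutation tests in scipy 1.17.1. Precision is limited by 2 arrays per group. The miRNAs named are the members, the opposite arms of their hairpins, for each member the 5 miRNAs with the highest Pearson r over 12 group means, and members of fixed lists: the group with the related 5′ end, metabolic miRNAs, and markers of white cells, myeloid cells, lymphocytes, red cells, platelets and hepatocytes. The membership rule uses names only, but the members and the lists were proposed with earlier results of these data known. Alternatives were other scalings, background correction, filters, floor, threshold, arrays in the fit, the authors' table, a replicate block and leaving out each array. Sequences are from RefSeq (GRCr8) and were matched for both members, for 6 of 6 relatives and for rno-miR-103-2*.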

Additional observations from a re-analysis of the deposited data

How the results depend on the processing

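Values are given as miR-103 and miR-107 in turn where 2 follow a comparison, on the log2 scale, and T0 means before therapy. No alternative scaling, filter or left-out array turned the sign of MS at 34 days against CIA T0, PLA or MTX, of ANE at 1 hour against CIA T0, or of PLA at 34 days against CIA T0. Calls changed in these comparisons only. MS at 34 days minus CIA T0 passed without scaling (1.78 and 1.66, limma adjusted p 0.0101 and 0.0102), for miR-103 in the authors' table (0.67, 0.0473), over the 132 miRNAs detected on all arrays (0.58 and 0.47, 0.0374 and 0.0406) and with the replicate block (0.58 and 0.47, 0.0452 for both). MS minus PLA at 34 days passed without scaling (1.61 and 1.45, 0.0199 and 0.0202) and with no filter on dim miRNAs (0.56 and 0.41, 0.0192 and 0.0299). The shift of the median miRNA in MS at 34 days minus CIA T0 was 0.16 as reported and 1.32 without scaling. Fitting only the arrays compared, leaving out the floor, the study's threshold (fold over 2 with unadjusted p under 0.05) and leaving out the 4 MS arrays, the last chosen after seeing the data, changed no direction and no call.

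Signs turned, without a call, as follows; the cause was not tested. With the 75th percentile over all miRNAs, PLA at 1 hour minus CIA T0 read -0.83 and -0.81, MTX at 1 hour minus CIA T0 -0.61 (miR-107), NOCIA at 1 hour minus T0 -0.33 and -0.29, MTX at 34 days minus CIA T0 -0.091 and -0.071, ANE at 34 days minus CIA T0 -0.10 and -0.15, MS minus PLA at 1 hour 0.68 and 0.66, MTX minus PLA at 1 hour 0.18 and 0.20, PLA minus NOCIA at 1 hour -0.28 and -0.30, MTX minus PLA at 34 days -0.14 and -0.16, the MS change minus the NOCIA change -0.14 and -0.26, and arthritic minus healthy 0.041 (miR-107).

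With the median over miRNAs detected everywhere, CIA minus NOCIA T0 read -0.10 and -0.099, MS at 1 hour minus CIA T0 0.18 and 0.18, NOCIA at 1 hour minus T0 -0.086 and -0.052, ANE at 34 days minus CIA T0 -0.0062 (miR-107), MS minus PLA at 1 hour 0.053 and 0.032, MTX minus PLA at 34 days -0.038 and -0.058, arthritic minus healthy -0.010 (miR-103), and treated 34 days minus 1 hour -0.010 and -0.018. With quantile normalization, CIA minus NOCIA T0 read -0.23 and -0.093, MS at 1 hour minus CIA T0 0.16 (miR-103), MTX at 1 hour minus CIA T0 0.0014 and -0.011, NOCIA at 1 hour minus T0 -0.20 (miR-103), arthritic minus healthy -0.065 (miR-103) and treated 34 days minus 1 hour -0.012 (miR-103).

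In the authors' table, CIA minus NOCIA T0 read -0.065 and -0.066, MS at 1 hour minus CIA T0 0.22 and 0.24, MTX at 1 hour minus CIA T0 0.031 (miR-103), NOCIA at 1 hour minus T0 -0.0021 and -0.00022, MS minus PLA at 1 hour 0.0024 and 0.041, and arthritic minus healthy 0.0076 (miR-107). Without scaling, MS at 1 hour minus CIA T0 read 0.87 and 0.87, MTX at 1 hour minus CIA T0 0.058 (miR-103), MS minus PLA at 1 hour 0.32 and 0.30 and arthritic minus healthy 0.23 (miR-107). With normexp on the raw spot signal, CIA minus NOCIA T0 read -0.15 (miR-103), NOCIA at 1 hour minus T0 -0.18 (miR-103), MTX at 1 hour minus CIA T0 -0.10 (miR-107), MTX at 34 days minus CIA T0 -0.070 (miR-107), MTX minus PLA at 34 days -0.039 and -0.10, the MS change minus the NOCIA change -0.0039 (miR-107), and arthritic minus healthy -0.045 and 0.064. The within-array difference then read -0.096 for arthritic against healthy and -0.051 for 34 days against 1 hour.

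Leaving out each array in turn kept direction and call in 290 of the values, turned the sign of 34 and added 4 calls, all on leaving out MS at 34 days, replicate 2. MS at 34 days minus CIA T0 ran from 0.39 to 0.77 and from 0.26 to 0.67, and minus PLA from 0.38 to 0.75 and from 0.21 to 0.61. CIA minus NOCIA T0 ran from -0.0037 to 0.023 and from -0.011 to 0.032, MS at 1 hour minus CIA T0 from -0.21 to 0.17 and from -0.23 to 0.18, MTX at 1 hour minus CIA T0 from -0.22 to 0.20 and from -0.13 to 0.18, MTX at 34 days minus CIA T0 from -0.20 to 0.28 and from -0.064 to 0.18, MS minus PLA at 1 hour from -0.34 to 0.046 and from -0.37 to 0.035, MTX minus PLA at 1 hour from -0.35 to 0.071 and from -0.27 to 0.035, PLA minus NOCIA at 1 hour from -0.14 to 0.25 and from -0.069 to 0.14, and MTX minus PLA at 34 days from -0.22 to 0.26 and from -0.12 to 0.12. For miR-103 alone, NOCIA at 1 hour minus T0 ran from -0.020 to 0.19, PLA at 1 hour minus CIA T0 from -0.066 to 0.32 and arthritic minus healthy from -0.026 to 0.043. The within-array difference of 34 days against 1 hour ran from -0.0095 to 0.031. A lone array was assumed to vary like the other groups.

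No common pairing of arrays by replicate number was seen. Over 66 pairs of groups the correlation of same-numbered deviations ran from -0.767 to 0.845 with a median of -0.0345, and 26 were over 0.1. Since a group holds 2 arrays, the deviations of its replicates mirror each other. The check therefore cannot exclude a pairing in some groups. The replicate block changed no call other than those above. A slide block was not run, since each group lay on 1 slide and the term cannot be fitted beside the group means. All 10 spots of each member's probes stood well above background on every array. With 2 arrays per group the standard error of a comparison of 2 groups was 0.20 for miR-103 and 0.17 for miR-107.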
